A study of Homo sapiens with 12 samples.

Results

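Long non-coding RNAs (lncRNAs) that start beside a coding gene and run away from it on the opposite strand carry the neighbour's symbol followed by -DT, for divergent transcript. In GENCODE v29, 75 lncRNA genes of the deposited tables had such a symbol. The 36 with a mean of at least 0.5 CPM (the estimated count of a gene scaled to a fixed library total) over the 12 libraries are described here, out of 15904 lncRNA genes and 60617 genes in all. Of the other 39, 2 were listed at 0 in every library. The members were thus selected on their measured mean CPM over these libraries, which is given as a description with no test. Just inside the threshold stood CEP83-DT at 0.523 CPM, VPS33B-DT at 0.566 CPM and DNAJC3-DT at 0.588 CPM. By library totals, the scale of the rule, the siCo means of VPS33B-DT and DNAJC3-DT were under 0.5 CPM. Both therefore met the rule only through their treated libraries, as did CPEB2-DT (below). Just outside stood IDH2-DT at 0.456 CPM, FZD10-DT at 0.450 CPM and LLPH-DT at 0.431 CPM. Each member was set beside the coding gene named in its symbol, and all 36 coding genes were found.

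The cells were A549, a human lung adenocarcinoma line, and RNA was taken 24 hours after transfection with siRNA. The 4 libraries of siCo received a control siRNA that targets no gene. The 4 libraries of siYAP/TAZ#1 and the 4 of siYAP/TAZ#2 each received a mix of siRNAs that targets YAP1 together with WWTR1 (which encodes TAZ). The second mix is a different combination from the first, and the study asks which lncRNAs depend on these factors. All groups are the same line with transient transfection, and no normal lung cells were compared.

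Many promoters, above all those rich in CpG dinucleotides, load RNA polymerase in both directions. The transcript running away from the coding gene is usually short, ends at an early polyadenylation site, and is destroyed in the nucleus by the exosome, an RNA-degrading complex that cofactors bring to it. Some such transcripts are longer, spliced and stable enough to be annotated as lncRNA genes. Because both RNAs start from a shared stretch of open chromatin, their levels are often compared. YAP1 and TAZ are coactivators of the Hippo pathway that reach DNA mainly through TEAD transcription factors.

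By the v29 models, 28 members began within 1 kb of the coding gene with a gap between the starts, 6 overlapped it at the 5′ ends by up to 1 kb, and 2 lay further off. The exceptions were ITGB1-DT and CHKB-DT, at 5′ distances of -46947 and -18429 bases, where a negative distance means that the gene models overlap. RefSeq placed the start of CHKB 177 bases from that of CHKB-DT. The median distance over the 34 near pairs was 119.5 bases. Annotated types were 18 lincRNA, 12 antisense, 3 processed transcript and 3 bidirectional promoter lncRNA, and 7 members had 1 exon. Exonic bases were shared with another gene by 14 members and with the named coding gene by 6 (GARS-DT, CTBP1-DT, ITGB1-DT, FAM111A-DT, NDUFA6-DT and LY6E-DT). Whether the libraries kept strand is not given in the sources used here, so reads in those shared bases cannot be assigned to a strand.

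The stretches between starts are shown for the 4 members that were called, alone or against their coding gene, with both siRNA combinations and whose stretch between the starts lies free of both genes within the window. They were taken from RefSeq promoter windows on GRCh38.p14 and are written 5′ to 3′ in the direction of the lncRNA. Capitals mark the bases outside both genes, between the outermost starts in RefSeq and GENCODE v29, and 15 flanking bases on either side are in lower case. The coding gene leaves to the left on the opposite strand and the lncRNA to the right.

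GMDS-DT, chr6:2245678-2245762, plus strand: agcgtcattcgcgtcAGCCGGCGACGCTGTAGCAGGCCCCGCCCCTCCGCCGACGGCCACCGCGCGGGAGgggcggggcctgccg

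NUP50-DT, chr22:45163767-45163855, minus strand: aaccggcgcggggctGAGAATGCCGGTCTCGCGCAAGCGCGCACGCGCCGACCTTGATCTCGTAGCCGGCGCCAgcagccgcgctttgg

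EIF3J-DT, chr15:44536909-44537071, minus strand: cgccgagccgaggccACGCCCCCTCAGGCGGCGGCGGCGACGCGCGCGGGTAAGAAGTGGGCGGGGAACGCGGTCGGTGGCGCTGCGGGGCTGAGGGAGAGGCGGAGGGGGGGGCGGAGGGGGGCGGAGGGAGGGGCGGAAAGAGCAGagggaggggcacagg

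FRG1-DT, chr4:189940719-189940802, minus strand: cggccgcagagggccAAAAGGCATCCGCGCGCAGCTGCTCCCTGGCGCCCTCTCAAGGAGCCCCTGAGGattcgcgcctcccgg

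The capital stretches were short, at 55, 59, 133 and 54 bases in that order. Promoter windows, from 250 bases before to 50 after a start, were found for 27 of the 36 members. These windows held a median of 34 CpG dinucleotides and 71.0% G or C, against 14 and 58.7% over all 35116 windows of the RefSeq table. A TATA box (TATAAA) on either strand occurred in 0 of the 27 and in 11.5% of all windows. The TEAD motif GGAATG occurred in 1 window (3.70%), that of NIPBL-DT, against 14.0% of all. The AP-1 motif TGANTCA occurred in 1 (3.70%), that of EIF3J-DT, against 7.71% of all. The E-box CACGTG was present in 5 (18.5%), among them NUP50-DT and MAFG-DT, against 7.26% of all. Motifs were searched on both strands, no member window held more than 1 of them, and a match is a description of letters only.

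Over the whole series, the library totals ran from 29617111 to 38264296 estimated counts, and a count of 10 equalled 0.261 to 0.338 CPM. TMM scaling factors were 0.887 to 0.944 in siCo and 0.967 to 1.10 in treated libraries. Library siYAP/TAZ#2 replicate 1 had the lowest factor of its group (0.967, others 1.05 to 1.10). YAP1 fell to 15.5% of siCo with siYAP/TAZ#1 and 14.3% with siYAP/TAZ#2, and WWTR1 to 13.7% and 13.5% (two-sided exact permutation p = 0.0286 each, the smallest that 4 against 4 allows). All 5 epithelial markers reached 1 TPM (the deposited transcript abundance, scaled to a fixed total and corrected for length) in at least 1 library. EPCAM ran from 0.849 to 3.29 TPM over the libraries. The summed mean of the 5 was 1330.2 TPM in siCo, 1802 in siYAP/TAZ#1 and 1855 in siYAP/TAZ#2. Markers of the other cell types were counted in the same way. Of 6 alveolar type 2 markers 2 reached 1 TPM (ABCA3 and NAPSA), SFTPA1 was at 0 throughout, and the sums were 13.9, 23 and 24.2 TPM. Endothelial markers (0 of 3) summed to at most 0.207 TPM, while fibroblast markers (1 of 3, COL1A1) summed to 21.8, 36.2 and 29.7 TPM and leukocyte markers (1 of 3, CD68) to 13.9, 15.2 and 17.8 TPM. The part of these marker levels in the results below was not tested.

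The divergent lncRNAs were mostly scarce beside their coding genes. In siCo their mean TPM ran from 0.119 (AFDN-DT) to 12.2 (MAFG-DT) with a median of 0.718, and that of the coding genes from 0.556 (KDM7A) to 282 (ITGB1) with a median of 10.2. A member had a median of 9.62% of its coding gene's TPM, 19 of 36 had less than 10%, and 35 had less TPM than the coding gene. The exception was KDM7A-DT, at 0.676 ± 0.155 TPM (SD, n = 4) beside 0.556 ± 0.0602 TPM for KDM7A, a histone demethylase. That difference is within the spread of the lncRNA.

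**Figure D1:**
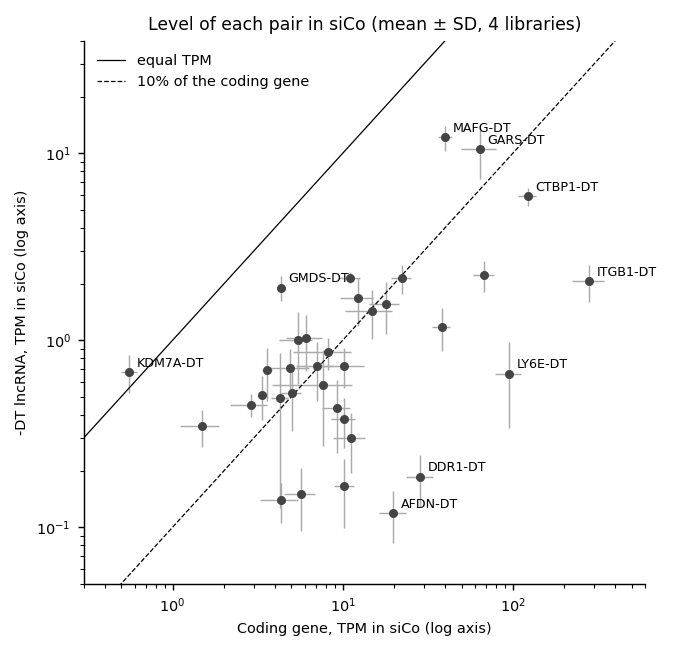
Mean TPM in siCo of each lncRNA (vertical, log axis) against that of its coding gene (horizontal, log axis); points are 35 pairs, bars are SD over 4 libraries, the solid line is equal TPM and the dashed line 10% of the coding gene. KDM7A-DT alone stands above the solid line, and AFDN-DT, DDR1-DT, LY6E-DT and ITGB1-DT are at under 1% of their coding gene.

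Abundance of the lncRNA did not follow that of the gene it is named after in any single way. MAFG-DT, beside the gene of the small Maf transcription factor MAFG, reached 12.2 ± 1.81 TPM and 30.2% of its neighbour. GMDS-DT, beside the GDP-mannose dehydratase gene that opens GDP-fucose synthesis, had 1.91 ± 0.29 TPM and 43.9% of GMDS. At the other end, AFDN-DT, beside the junction protein gene AFDN, was at 0.598%. ITGB1-DT, beside the gene of integrin beta 1, was at 0.733%, although at 2.07 ± 0.459 TPM it was among the 8 most abundant members over all libraries. Those 8 were GARS-DT, MAFG-DT, CTBP1-DT, BAIAP2-DT, GMDS-DT, ITGB1-DT, CHKB-DT and NDUFA6-DT.

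Low abundance limits what can be seen. The standard error of a member's log2 change had a median of 0.17, against 0.08 for the coding genes, and the scarcest member in a library had 6 estimated counts. A member could therefore miss the test where a coding gene with the same change would pass.

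With siYAP/TAZ#1, 7 of the 36 divergent lncRNAs rose and 0 fell. With siYAP/TAZ#2, 12 rose and 0 fell, and the 12 include CPEB2-DT, which met the CPM rule only through its treated libraries. The edgeR quasi-likelihood test was adjusted over 21581 genes (Benjamini-Hochberg, called at adjusted p under 0.05). Of all genes tested, 16.4% were higher and 18.5% lower with siYAP/TAZ#1 (34.9% called), and 19.0% were higher and 19.2% lower with siYAP/TAZ#2 (38.2% called). Of the 3022 lncRNA genes at or above the same CPM level, 13.6% were higher and 4.4% lower with the first combination (18.0% called) and 13.4% and 6.88% with the second (20.3% called). The members' 19.4% higher with siYAP/TAZ#1 is near these shares, and their 33.3% with siYAP/TAZ#2 is above them. At an unadjusted p under 0.05 in edgeR, 0 members were lower with siYAP/TAZ#1 and 1 with siYAP/TAZ#2. In bulk RNA, fewer cells of a type and less RNA per cell cannot be told apart.

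The median log2 change of the members was 0.17 with siYAP/TAZ#1 and 0.23 with siYAP/TAZ#2, against 0.02 with either combination for all genes tested and 0.13 and 0.08 for lncRNA genes at this level. The combinations share the siCo libraries. With both of them, 6 members (16.7%) rose, beside 12.5% of all genes tested and 8.70% of lncRNA genes at this level: BAIAP2-DT, GMDS-DT, FAM111A-DT, FRG1-DT, NDUFA6-DT and LHX1-DT. NIPBL-DT rose with siYAP/TAZ#1 only by the test, and GARS-DT, ITGB1-DT, NUP50-DT, FLVCR1-DT, LY6E-DT and CPEB2-DT with siYAP/TAZ#2 only. The remaining 23 passed with neither. All 4 treated libraries lay above all 4 of siCo for 9 members with siYAP/TAZ#1 and 10 with siYAP/TAZ#2 (18.0% and 17.0% of all genes), and below for 0 and 0 (20.7% and 17.7% of all genes). Without library siYAP/TAZ#2 replicate 1, the counts of members that rose were 10 and 11, and 0 fell with either combination. With library totals alone as the scale, on which the median gene shifted by 0.19 (log2) with each combination, 13 and 16 rose. On log2(TPM + 1), 3 members rose with siYAP/TAZ#1 by limma.

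**Figure D2:**
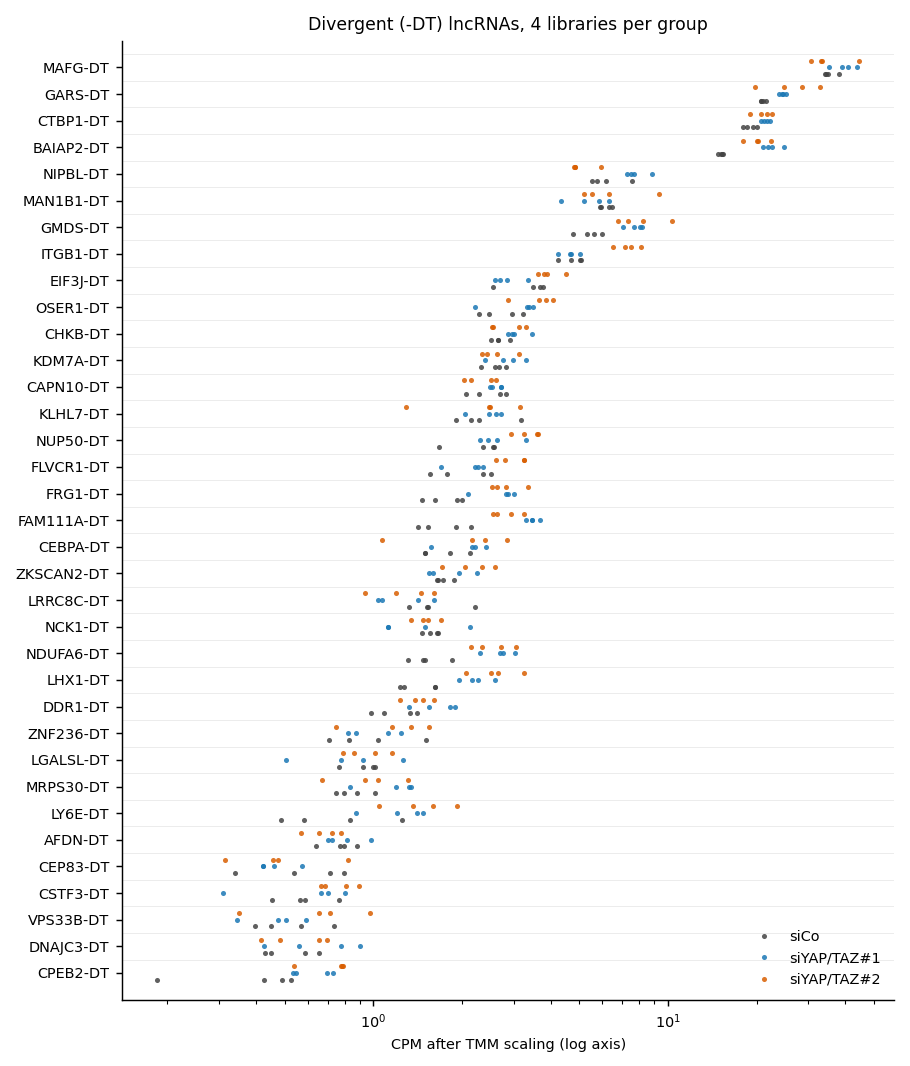
CPM after TMM scaling (log axis) of 35 divergent lncRNAs in each of the 12 libraries, in order of their siCo mean; each point is 1 library and colours are the groups. The treated points of BAIAP2-DT, GMDS-DT, FAM111A-DT, FRG1-DT, NDUFA6-DT and LHX1-DT lie to the right of all their siCo points, and most other members overlap.

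BAIAP2-DT (ENSG00000226137, chr17:81029130-81034881, minus strand, GRCh38) is a lincRNA of 2 exons beside BAIAP2, which encodes an adaptor protein of the actin-rich cell edge. Its CPM was 14.8, 15.3, 15.2 and 15.3 in the siCo libraries, 21.8, 24.7, 21.1 and 22.6 with siYAP/TAZ#1 and 22.5, 18, 20.1 and 20.3 with siYAP/TAZ#2. Every treated library was above every control library, and the siCo values were close together. The log2 change was 0.57 ± 0.08 (SE; edgeR adjusted p = 1.9e-05) and 0.42 ± 0.08 (edgeR adjusted p = 0.000373). The coding gene stayed nearer to its control level, at 112 ± 3.92 CPM (mean ± SD, n = 4) in siCo, 117 ± 3.77 and 121 ± 17.6, with log2 changes of 0.06 and 0.10 that did not pass the test.

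FAM111A-DT (ENSG00000245571, chr11:59130133-59143015, minus strand) showed the largest log2 change with siYAP/TAZ#1 among the 36. FAM111A, its neighbour, encodes a serine protease that acts at replication forks and restricts some viruses. The lncRNA was at 2.14, 1.54, 1.42 and 1.9 CPM in siCo, 3.31, 3.46, 3.69 and 3.45 with siYAP/TAZ#1 and 2.55, 3.25, 2.92 and 2.63 with siYAP/TAZ#2, so that no treated library reached down to the controls. It rose by 0.98 ± 0.15 and 0.69 ± 0.15 on the log2 scale (edgeR adjusted p = 6.27e-05 and 0.00145). FAM111A rose as well, from 23.5 ± 1.75 CPM to 31.1 ± 2.47 and 35.7 ± 6.57 (log2 change 0.40 ± 0.11 and 0.60 ± 0.11, edgeR adjusted p = 0.0114 and 0.000522). The genes share 123 exonic bases in v29.

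GMDS-DT (ENSG00000250903, chr6:2245748-2482022, plus strand) has 17 exon blocks over a long locus. Its CPM was 4.77, 5.32, 5.96 and 5.6 in siCo, 8.18, 7.03, 7.66 and 8.06 with siYAP/TAZ#1 and 6.75, 8.22, 7.33 and 10.3 with siYAP/TAZ#2. Both treated groups were above the controls without overlap, with log2 changes of 0.52 ± 0.12 and 0.59 ± 0.12 (edgeR adjusted p = 0.00376 and 0.00121). GMDS itself was at 9.4 ± 1.01, 9.07 ± 0.846 and 9.87 ± 1.0 CPM, differences smaller than its spread between libraries.

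FRG1-DT (ENSG00000245685, chr4:189780336-189940271, minus strand) lies beside FRG1, a gene near the chromosome 4 region tied to facioscapulohumeral muscular dystrophy. FRG1 has near-identical copies elsewhere in the genome, so how its reads were assigned is uncertain. The lncRNA was at 1.93, 2.0, 1.46 and 1.62 CPM in siCo, 2.1, 2.87, 2.82 and 3.0 with siYAP/TAZ#1 and 3.34, 2.83, 2.52 and 2.63 with siYAP/TAZ#2. The treated libraries were all higher, the lowest by a small margin, and the log2 changes were 0.62 ± 0.16 and 0.69 ± 0.16 (edgeR adjusted p = 0.00649 and 0.00296). FRG1 had log2 changes of -0.12 and -0.16 and passed the test with neither.

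NDUFA6-DT (ENSG00000237037, chr22:42090931-42137742, plus strand) is a processed transcript beside NDUFA6, which encodes a subunit of mitochondrial complex I. It was at 1.31, 1.85, 1.5 and 1.48 CPM in siCo, 2.76, 3.04, 2.3 and 2.7 with siYAP/TAZ#1 and 2.14, 2.71, 3.06 and 2.35 with siYAP/TAZ#2. The groups did not overlap, and the change was 0.81 ± 0.16 and 0.74 ± 0.16 on the log2 scale (edgeR adjusted p = 0.000918 and 0.00177). NDUFA6 moved by 0.10 and 0.06 and was not called. The lncRNA shares 25 exonic bases with NDUFA6 and further bases with 2 unnamed genes of the locus.

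LHX1-DT (ENSG00000277268, chr17:36861674-36936661, minus strand) and its neighbour rose together. LHX1 encodes a LIM homeobox transcription factor of kidney and nervous system development. LHX1-DT was at 1.62, 1.23, 1.27 and 1.62 CPM in siCo, 1.96, 2.59, 2.17 and 2.27 with siYAP/TAZ#1 and 3.25, 2.5, 2.07 and 2.66 with siYAP/TAZ#2, with no overlap between treated and control libraries. LHX1 was at 5.44, 6.18, 7.76 and 5.49, 11.8, 15.6, 13.2 and 10.6 and 18.1, 14, 14.5 and 14.8 CPM, again without overlap. The log2 changes of the lncRNA were 0.64 ± 0.17 and 0.86 ± 0.17 (edgeR adjusted p = 0.00886 and 0.000902), and those of LHX1 were 1.05 ± 0.14 and 1.31 ± 0.14 (edgeR adjusted p = 1.56e-05 and 1.24e-06).

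The calls of these 6 members held with each combination in all 12 fits that left out 1 library. On log2(TPM + 1) with limma, GMDS-DT and NDUFA6-DT were not called with either combination and LHX1-DT was not called with siYAP/TAZ#1, while the other calls held. On that scale the median gene itself shifted by 0.33 with siYAP/TAZ#1 and 0.40 with siYAP/TAZ#2 (both on log2(TPM + 0.1)).

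Members that passed with siYAP/TAZ#2 only included 4 with separated groups, ITGB1-DT, NUP50-DT, FLVCR1-DT and CPEB2-DT. ITGB1-DT (ENSG00000229656, chr10:32958845-33082102, plus strand) was at 4.68, 4.25, 5.02 and 5.09 CPM in siCo, 4.64, 5.04, 4.69 and 4.24 with siYAP/TAZ#1 and 7.16, 8.13, 7.49 and 6.54 with siYAP/TAZ#2. Only the last group stood apart. The log2 change was 0.62 ± 0.10 with siYAP/TAZ#2 (edgeR adjusted p = 0.000136) and -0.03 ± 0.10 with siYAP/TAZ#1 (edgeR adjusted p = 0.851). ITGB1, the integrin beta 1 subunit through which cells hold to collagen and fibronectin, had log2 changes of -0.20 and -0.04 and was not called with either.

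NUP50-DT (ENSG00000226328, chr22:45133020-45163781, minus strand) was at 2.57, 2.55, 2.36 and 1.68 CPM in siCo, 2.3, 2.45, 3.3 and 2.64 with siYAP/TAZ#1 and 3.25, 3.6, 2.92 and 3.63 with siYAP/TAZ#2, where every library was above the controls. It rose by 0.55 ± 0.16 with siYAP/TAZ#2 (edgeR adjusted p = 0.013). FLVCR1-DT, beside the gene of a haem and choline transporter, was at 1.56, 1.78, 2.36 and 2.5, 1.7, 2.36, 2.22 and 2.27 and 2.62, 2.8, 3.25 and 3.25 CPM and rose by 0.54 ± 0.17 (edgeR adjusted p = 0.0195). Here too the siYAP/TAZ#2 libraries stood above those of siCo, while FLVCR1 moved by -0.06 and -0.06 and was not called. The FLVCR1-DT call was lost without siCo replicate 1 or 2 or siYAP/TAZ#2 replicate 3 or 4 (edgeR adjusted p up to 0.0693).

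The other calls with a single combination were weaker. GARS-DT, beside the gene of glycyl-tRNA synthetase, was at 20.7, 20.7, 21.1 and 21.6 CPM in siCo, 25.2, 24.6, 23.9 and 24.5 with siYAP/TAZ#1 and 19.7, 32.9, 24.7 and 28.4 with siYAP/TAZ#2. The siYAP/TAZ#1 libraries were all above the controls but missed the test (log2 change 0.22 ± 0.11, edgeR adjusted p = 0.139), while the siYAP/TAZ#2 libraries overlapped them and passed (0.33 ± 0.11, edgeR adjusted p = 0.0268). GARS-DT lost its call in 5 of 12 fits that left out 1 library: siCo replicates 1, 2 and 3 and siYAP/TAZ#2 replicates 2 and 4. LY6E-DT, beside the gene of a membrane-anchored Ly6 protein, was at 0.581, 0.831, 0.487 and 1.25, 1.41, 0.872, 1.47 and 1.21 and 1.92, 1.04, 1.37 and 1.6 CPM, with overlap between groups, and rose by 0.89 ± 0.29 (edgeR adjusted p = 0.0221). Its call was lost without siCo replicate 1 or 3 or siYAP/TAZ#2 replicate 1 or 4.

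CPEB2-DT was at 0.489, 0.185, 0.524 and 0.426 CPM in siCo, 0.547, 0.535, 0.699 and 0.73 with siYAP/TAZ#1 and 0.788, 0.775, 0.537 and 0.782 with siYAP/TAZ#2, among the lowest of all members. Treated libraries were above the controls in both groups. The call with siYAP/TAZ#2 (0.83 ± 0.31, edgeR adjusted p = 0.0431) held in 3 of 12 fits that left out 1 library, those without siCo replicate 1 or 3 or siYAP/TAZ#2 replicate 3. The siCo mean of CPEB2-DT, 0.406 CPM, was under the 0.5 CPM of the membership rule. It met the rule through its treated libraries (means 0.628 and 0.720 CPM), so its rise is not independent of the selection. CPEB2, a protein that controls translation through the poly(A) tail of mRNAs, rose from 61.7 ± 4.04 CPM to 95 ± 9.21 and 83.6 ± 9.07 (log2 change 0.62 ± 0.08 and 0.44 ± 0.08, edgeR adjusted p = 2.42e-05 and 0.000576). NIPBL-DT, beside the gene of the cohesin loader NIPBL, was at 6.17, 7.54, 5.54 and 5.77, 8.87, 7.51, 7.26 and 7.69 and 4.86, 4.86, 4.8 and 5.94 CPM. It rose with siYAP/TAZ#1 by 0.32 ± 0.11 (edgeR adjusted p = 0.038), in groups that overlapped, and this call was lost in 6 of 12 fits that left out 1 library: siCo replicates 1, 3 and 4 and siYAP/TAZ#1 replicates 1, 2 and 4.

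Between the combinations, 3 members differed: ITGB1-DT and EIF3J-DT were higher and NIPBL-DT lower with siYAP/TAZ#2 than with siYAP/TAZ#1 (15.1% of all genes were called, 8.2% higher and 6.92% lower, and 3.97% of lncRNA genes at this level, 1.19% higher and 2.78% lower). ITGB1-DT differed by 0.66 ± 0.10 (edgeR adjusted p = 0.000221) and NIPBL-DT by -0.62 ± 0.12 (edgeR adjusted p = 0.00122), and in both the 4 libraries of one combination did not overlap the 4 of the other. EIF3J-DT differed by 0.47 ± 0.14 (edgeR adjusted p = 0.0334) with CPM of 3.76, 3.69, 2.55 and 3.5 in siCo, 2.59, 3.35, 2.7 and 2.84 with siYAP/TAZ#1 and 3.63, 3.9, 4.51 and 3.78 with siYAP/TAZ#2, and it was called against siCo with neither. The EIF3J-DT call was lost in 6 of 12 fits that left out 1 library. Without siYAP/TAZ#2 replicate 1, 4 members were higher and 3 lower between the combinations: GARS-DT (0.23) and FLVCR1-DT (0.54) were also higher, and MAFG-DT (-0.29) and BAIAP2-DT (-0.20) also lower.

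The coding genes changed in both directions. With siYAP/TAZ#1, 5 rose and 11 fell, and with siYAP/TAZ#2, 5 rose and 10 fell, beside 19.5% higher and 25.6% lower of all 14805 coding genes tested with the first combination (45.1% called) and 23.3% and 25.7% with the second (49.0% called). Between the combinations, 3 of the 36 were higher and 4 lower with siYAP/TAZ#2, beside 11.5% and 9.28% of coding genes (20.8% called). Those that fell with both included NUP50, EIF3J, LRRC8C, GARS, CAPN10, MRPS30 and AFDN, of which GARS, CAPN10, MRPS30 and AFDN took values above 0 with both on log2(TPM + 1), a scale on which the median gene itself shifted upward. Those that rose with both were LHX1, CEBPA, CPEB2 and FAM111A. CTBP1, CSTF3 and CEP83 fell and DDR1 rose with siYAP/TAZ#1 only by the test, and MAFG and DNAJC3 fell and MAN1B1 rose with siYAP/TAZ#2 only. Some of these calls did not survive leaving out 1 library. In the 12 fits that left out 1 library, the call of MAN1B1 held only without siYAP/TAZ#1 replicate 2 or siYAP/TAZ#2 replicate 2, and that of MAFG in 5, those without siCo replicate 4, siYAP/TAZ#1 replicate 2, 3 or 4 or siYAP/TAZ#2 replicate 1 (edgeR adjusted p up to 0.104 and 0.12). AFDN with each combination and CTBP1 lost their calls in 7, CAPN10 with siYAP/TAZ#1 in 5, CSTF3 in 4, MRPS30 with siYAP/TAZ#2 in 2 and GARS with siYAP/TAZ#2 in 1 (siCo replicate 4). The calls of NUP50, EIF3J, LRRC8C, LHX1, CEBPA, CPEB2, FAM111A, CEP83, DDR1 and DNAJC3 against siCo held in all 12. The lower calls depended on the scale: with library totals alone 4 and 4 were lower and 16 and 13 higher, and on log2(TPM + 1) 0 and 1 were lower. The 4 that were lower on library totals alone were NUP50, EIF3J, LRRC8C and CEP83 with siYAP/TAZ#1 and NUP50, CAPN10, LRRC8C and DNAJC3 with siYAP/TAZ#2. Without siYAP/TAZ#1 replicate 1 or 3, 7 coding genes fell with siYAP/TAZ#1, and without siYAP/TAZ#2 replicate 3, 6 fell with siYAP/TAZ#2.

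The lncRNA and its coding gene were then compared within each library, as the log2 CPM of the lncRNA minus that of the coding gene, a difference in which the scaling factor of a library largely cancels. The difference was tested with limma over 924 pairs, the 36 and 888 other lncRNA genes with a coding 5′ end within 5 kb on the opposite strand. The lncRNA became relatively higher in 11 of the 36 pairs with siYAP/TAZ#1 and in 13 with siYAP/TAZ#2, and relatively lower in 0 and 0. The 13 include the DNAJC3 pair, whose lncRNA met the CPM rule only through its treated libraries. Over all 924 pairs, 22.6% and 25.2% were called, with the lncRNA relatively higher in 19.0% and 19.8% and relatively lower in 3.57% and 5.41%. The median difference was 0.25 and 0.23 over the 36 pairs and 0.21 and 0.18 over the 888 others. A lean towards the lncRNA was thus also present in the other head-to-head pairs.

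**Figure D3:**
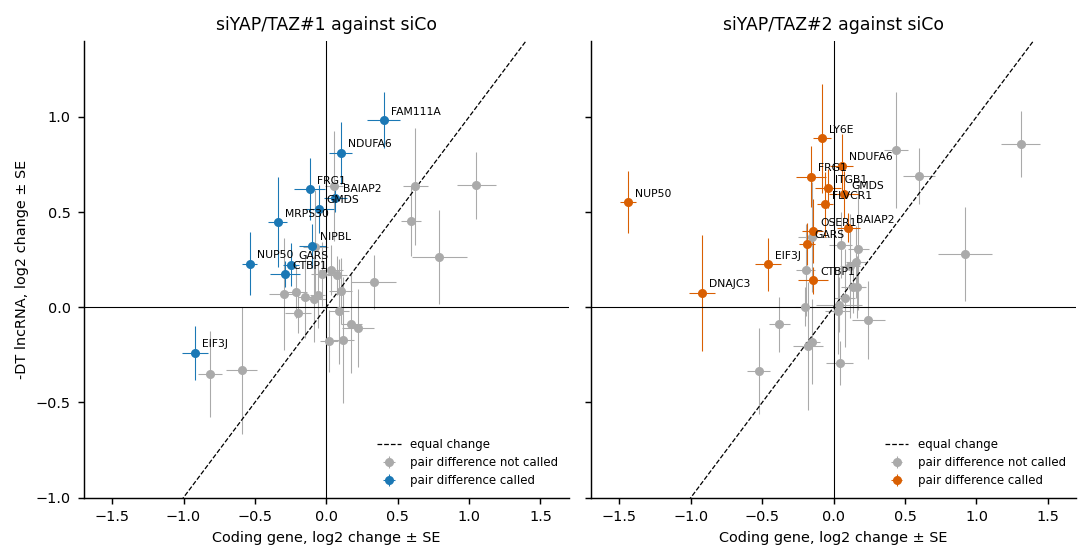
Log2 change of 35 divergent lncRNAs (vertical) against that of the coding gene (horizontal) with siYAP/TAZ#1 (left) and siYAP/TAZ#2 (right); bars are standard errors, coloured points are pairs whose difference was called, and the dashed line marks equal change. All 11 and 13 coloured points lie above the dashed line, with NUP50 furthest from it on the right.

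Across the 36 pairs, Pearson's r between the changes of lncRNA and coding gene was 0.51 with siYAP/TAZ#1 and 0.29 with siYAP/TAZ#2 (Spearman's rho 0.37 and 0.32), a description over pairs that share libraries. Over the 888 other pairs r was 0.34 and 0.26 (rho 0.26 and 0.23). Both genes changed in the same direction in 44.4% and 55.6% of the 36 pairs, beside 54.7% and 57.1% of the 888. With siYAP/TAZ#1, 2 pairs had both genes higher, 5 had only the lncRNA higher, 11 had only the coding gene lower and 3 had only the coding gene higher. As shares of the 36 these were 5.56%, 13.9%, 30.6% and 8.33%, beside 5.19%, 7.36%, 28.0% and 9.96% of all 924 pairs. With siYAP/TAZ#2 these numbers were 3, 7, 8 and 2 (8.33%, 19.4%, 22.2% and 5.56%, beside 5.63%, 6.93%, 27.9% and 13.1%), and in 2 more (5.56%, NUP50 and GARS, beside 3.79%) the lncRNA was higher and the coding gene lower. No pair was called in opposite directions with both combinations, and 15 and 14 pairs had no call on either gene (41.7% and 38.9%, beside 43.5% and 37.6%). Pairs relatively higher with both combinations numbered 8 of 36, beside 104 of the 888 other pairs: NUP50, EIF3J, NDUFA6, FRG1, GARS, GMDS, BAIAP2 and CTBP1.

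NUP50-DT and NUP50 parted most. NUP50 encodes a nucleoporin that helps cargo release in nuclear import, and its CPM was 81.2, 80.4, 82.5 and 83.6 in siCo, 57.5, 56.2, 56 and 56.3 with siYAP/TAZ#1 and 27.8, 30.7, 31.6 and 30.4 with siYAP/TAZ#2. The 3 groups did not overlap, and siYAP/TAZ#2 was lowest. NUP50 fell by 0.53 and 1.44 on the log2 scale (SE 0.05 each, edgeR adjusted p = 7.52e-07 and 1.23e-11) and differed between combinations by -0.91 ± 0.05 (edgeR adjusted p = 5.46e-09). The log2 difference of NUP50-DT minus NUP50 was -4.98, -4.98, -5.13 and -5.64 in siCo, -4.64, -4.52, -4.09 and -4.42 with siYAP/TAZ#1 and -3.10, -3.09, -3.44 and -3.07 with siYAP/TAZ#2. It shifted by 0.76 ± 0.17 and 1.99 ± 0.17 (limma adjusted p = 0.00464 and 2.16e-07), and by 1.24 ± 0.17 between the combinations (limma adjusted p = 0.000148). In TPM the lncRNA went from 3.09% of NUP50 in siCo to 5.66% and 10.2%. Their starts are 60 bases apart in v29 across the stretch shown above.

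In the EIF3J pair the coding gene fell and the lncRNA was not called. EIF3J, a loosely held subunit of translation initiation factor 3, was at 31.7, 30.6, 31.2 and 38.1 CPM in siCo, 16.5, 15.5, 18.7 and 18.9 with siYAP/TAZ#1 and 21.3, 23.1, 26.3 and 24.9 with siYAP/TAZ#2. The groups were apart, with siYAP/TAZ#1 lowest, and the log2 changes were -0.92 ± 0.09 and -0.46 ± 0.09 (edgeR adjusted p = 1.02e-06 and 0.000722). EIF3J-DT (ENSG00000179523) had log2 changes of -0.24 ± 0.14 and 0.23 ± 0.14. The pair difference shifted alike with both, by 0.69 ± 0.16 and 0.70 ± 0.16 (limma adjusted p = 0.0051 and 0.00379), and differed between combinations by 0.00 ± 0.16 (limma adjusted p = 0.995). EIF3J-DT shares exonic bases with CTDSPL2, a gene on its far side.

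GARS fell slightly while GARS-DT was higher. GARS was at 148, 163, 168 and 173 CPM in siCo, 137, 137, 136 and 139 with siYAP/TAZ#1 and 136, 145, 144 and 147 with siYAP/TAZ#2, with log2 changes of -0.25 ± 0.06 and -0.19 ± 0.06 (edgeR adjusted p = 0.00225 and 0.0134). All treated libraries were below the controls. On library totals alone the change of GARS was -0.07 and 0.00, so its direction depends on the scale. The pair difference, in which the scale cancels, shifted by 0.47 ± 0.11 and 0.49 ± 0.11 (limma adjusted p = 0.00569 and 0.00304). GARS-DT (ENSG00000196295, chr7:30516309-30594809, minus strand) has 22 exon blocks and overlaps 4 other lncRNA or unnamed models besides 99 bases of GARS.

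CTBP1, a transcriptional corepressor, and CTBP1-DT are both abundant. CTBP1-DT was at 20.1, 18.6, 19.4 and 18 CPM in siCo, 21.7, 22.2, 20.7 and 21.3 with siYAP/TAZ#1 and 22.5, 19, 20.6 and 21.8 with siYAP/TAZ#2, and missed the test with both (edgeR adjusted p = 0.0628 and 0.128). CTBP1 was at 210.1, 217, 229 and 203, 178, 195, 172 and 158 and 252, 174, 176 and 176 CPM, with siYAP/TAZ#2 replicate 1 above every other library. The pair difference was 0.47 ± 0.10 and 0.30 ± 0.10 (limma adjusted p = 0.00397 and 0.0418), and the second call held in 4 of 12 fits that left out 1 library, those without siCo replicate 1, siYAP/TAZ#1 replicate 2 or 4 or siYAP/TAZ#2 replicate 1.

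For the other pairs called with both combinations, the shift came mainly from the lncRNA. The difference was 0.70 ± 0.17 and 0.66 ± 0.17 for NDUFA6 (limma adjusted p = 0.00624 and 0.00636). FRG1 gave 0.72 ± 0.21 and 0.84 ± 0.21 (limma adjusted p = 0.0198 and 0.00578), BAIAP2 0.51 ± 0.09 and 0.32 ± 0.09 (limma adjusted p = 0.000493 and 0.0108), and GMDS 0.56 ± 0.16 and 0.50 ± 0.16 (limma adjusted p = 0.0215 and 0.029). Leaving out 1 library at a time ended the GMDS call in 5 of 12 fits for each combination (limma adjusted p up to 0.125) and the FRG1 call with siYAP/TAZ#1 in 4 (up to 0.0676). In TPM, GMDS-DT went from 43.9% of GMDS to 69.6% and 63.1%, and FRG1-DT from 7.17% of FRG1 to 12.2% and 13.5%.

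**Figure D4:**
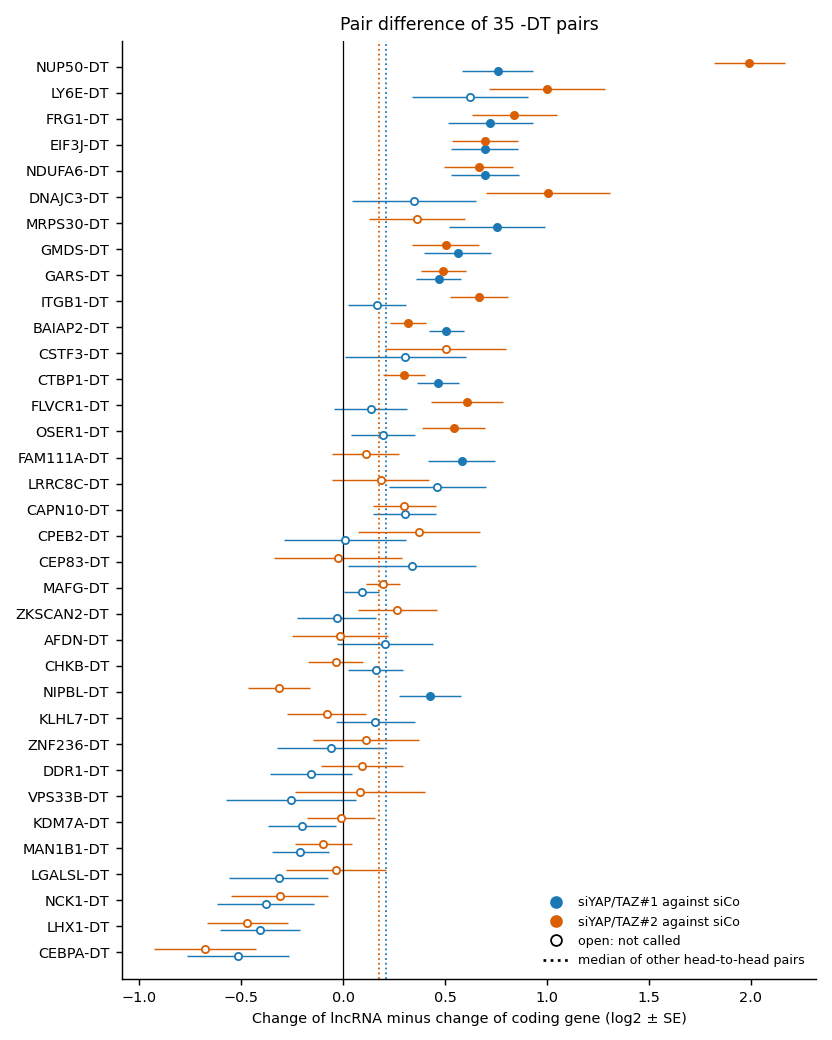
Change of the lncRNA minus change of its coding gene (log2 ± SE, horizontal) for 35 pairs with each combination; filled points passed the limma test, open points did not, and dotted lines are the medians of the 888 other pairs (0.21 and 0.18). NUP50-DT with siYAP/TAZ#2 stands furthest right at 1.99, and no point to the left of 0 is filled.

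With 1 combination only, the pair difference passed for FAM111A (0.58 ± 0.16), MRPS30 (0.75 ± 0.24) and NIPBL (0.43 ± 0.15) with siYAP/TAZ#1. With siYAP/TAZ#2 it passed for DNAJC3 (1.01 ± 0.30), LY6E (1.00 ± 0.28), ITGB1 (0.67 ± 0.14), FLVCR1 (0.61 ± 0.18) and OSER1 (0.54 ± 0.16). The limma adjusted p ran from 0.0173 to 0.0498 for the first 3 and from 0.00184 to 0.0188 for the other 5. With 1 library left out, the NIPBL call was lost in 8 of 12 fits (limma adjusted p up to 0.173) and held without siCo replicate 2, siYAP/TAZ#1 replicate 4 or siYAP/TAZ#2 replicate 1 or 2. The MRPS30 call was lost in 6 (siCo replicates 1, 3 and 4 and siYAP/TAZ#1 replicates 2, 3 and 4) and the FAM111A call in 3 (siCo replicate 2 and siYAP/TAZ#1 replicates 2 and 3). With siYAP/TAZ#2, DNAJC3 lost its call in 3 (siCo replicate 1 and siYAP/TAZ#2 replicates 1 and 4), FLVCR1 in 2 (siCo replicate 1 and siYAP/TAZ#2 replicate 4) and OSER1 in 1 (siYAP/TAZ#2 replicate 2), while LY6E and ITGB1 kept theirs in all 12. DNAJC3, an endoplasmic reticulum cochaperone, carried its pair: it was at 38.4, 37.2, 35.4 and 38.9 CPM in siCo, 37.1, 33.7, 34.2 and 37.2 with siYAP/TAZ#1 and 15.7, 20.7, 22.5 and 20.2 with siYAP/TAZ#2. Only the last group was apart, with a log2 change of -0.92 ± 0.09 (edgeR adjusted p = 5.84e-07), while DNAJC3-DT moved by 0.08 ± 0.30. DNAJC3-DT met the CPM rule only through its treated libraries, so the difference of this pair is not independent of the selection. Between the combinations, the difference was called for NUP50, for ITGB1 (0.50 ± 0.14, limma adjusted p = 0.0402) and for NIPBL (-0.74 ± 0.15, limma adjusted p = 0.00383), beside 6.28% of all 924 pairs (3.14% in either direction). The ITGB1 call between the combinations was lost in 7 of 12 fits that left out 1 library (limma adjusted p up to 0.138) and held without siCo replicate 2, 3 or 4, siYAP/TAZ#1 replicate 2 or siYAP/TAZ#2 replicate 4, while those of NUP50 and NIPBL held in all 12.

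Not every pair leaned towards the lncRNA. The lowest differences belonged to CEBPA-DT (-0.52 ± 0.25 and -0.68 ± 0.25) and LHX1-DT (-0.41 ± 0.20 and -0.47 ± 0.20), and neither passed (limma adjusted p from 0.0577 to 0.156). In both the coding gene had risen. CEBPA, a transcription factor of epithelial and myeloid differentiation, was at 13.4, 13.9, 17.7 and 11.6 CPM in siCo, 24.5, 29.2, 26.4 and 17.5 with siYAP/TAZ#1 and 38.5, 20.9, 25.3 and 22.2 with siYAP/TAZ#2, with log2 changes of 0.79 ± 0.19 and 0.92 ± 0.19 (edgeR adjusted p = 0.00362 and 0.00101). CEBPA-DT moved by 0.26 ± 0.24 and 0.28 ± 0.25 and was not called.

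These counts of pairs depend on the scale of the values and on some libraries. On the authors' TPM, the lncRNA was relatively higher in 3 and 5 pairs and lower in 0 and 0 on log2(TPM + 0.01), a pseudocount chosen after seeing the data. On log2(TPM + 1), which compresses the scarce lncRNAs, 2 and 3 pairs were relatively higher and 4 and 6 relatively lower. Without siYAP/TAZ#1 replicate 2 or 3, the count with siYAP/TAZ#1 was 7 or 6. Among the 22 members that share no exonic bases with another gene, the lncRNA was relatively higher in 6 and 6, and 5 and 6 members rose in their own right.

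The member with the highest CPM moved little. MAFG-DT (ENSG00000265688, chr17:81927829-81930753, plus strand) was at 34.9, 34.4, 38 and 34.1 CPM in siCo, 39, 43.7, 40.8 and 35.2 with siYAP/TAZ#1 and 44.7, 30.7, 33.3 and 33.1 with siYAP/TAZ#2. The groups overlapped, and the log2 changes were 0.17 ± 0.10 and 0.00 ± 0.10 (edgeR adjusted p = 0.227 and 0.984). MAFG changed by 0.07 ± 0.07 and -0.20 ± 0.07, the second passing the test (edgeR adjusted p = 0.034).

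Several lncRNAs were not called against siCo beside coding genes that fell. LRRC8C-DT, beside a gene of the volume-regulated anion channel, was at 1.53, 1.32, 2.21 and 1.53 CPM in siCo, 1.04, 1.6, 1.42 and 1.07 with siYAP/TAZ#1 and 1.61, 1.19, 1.45 and 0.938 with siYAP/TAZ#2, and its log2 changes of -0.35 ± 0.22 and -0.34 ± 0.23 missed the test. LRRC8C changed by -0.82 ± 0.08 and -0.53 ± 0.08 (edgeR adjusted p = 1.18e-06 and 9.05e-05), so at this precision the lncRNA is not shown to differ from it. CAPN10-DT, MRPS30-DT and AFDN-DT had log2 changes of 0.08, 0.45 and 0.05 with siYAP/TAZ#1 and -0.09, 0.19 and -0.18 with siYAP/TAZ#2. Their coding genes encode a calpain protease (CAPN10), a mitochondrial ribosome subunit (MRPS30) and an adherens junction scaffold (AFDN), and fell by 0.15 to 0.38 on the log2 scale. CSTF3-DT and CEP83-DT, beside genes of a polyadenylation factor and a centriole protein, stood at 0.591 ± 0.128 and 0.596 ± 0.202 CPM in siCo, where a change of the size seen in the coding genes is not detectable at this depth.

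DDR1-DT, beside the gene of a collagen-binding receptor kinase, was at 1.41, 0.984, 1.09 and 1.34 CPM in siCo, 1.32, 1.55, 1.9 and 1.83 with siYAP/TAZ#1 and 1.39, 1.61, 1.23 and 1.47 with siYAP/TAZ#2, and missed the test (edgeR adjusted p = 0.0714 and 0.359). DDR1 rose with siYAP/TAZ#1 from 123 ± 2.93 to 186 ± 6.27 CPM (log2 change 0.59 ± 0.07, edgeR adjusted p = 5.39e-06) and was at 137 ± 15.8 CPM with siYAP/TAZ#2. Further members without a call, beside coding genes of mixed function, were MAN1B1-DT, OSER1-DT, CHKB-DT, KDM7A-DT, KLHL7-DT, ZKSCAN2-DT, NCK1-DT, ZNF236-DT, LGALSL-DT and VPS33B-DT. Over all 23 members called with neither, log2 changes ran from -0.35 to 0.45 with siYAP/TAZ#1 and from -0.34 to 0.40 with siYAP/TAZ#2, with medians of 0.08 and 0.10.

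Newer gene names give the -DT ending to many more lncRNAs. In the newer table, 582 lncRNA genes of the tables had it and 231 passed the same CPM level, among them 35 of the 36 (MAFG-DT has since been renamed). Of the 231, 35 rose and 2 fell with siYAP/TAZ#1, and 39 rose and 2 fell with siYAP/TAZ#2, shares of 15.2% and 16.9% higher that are near the 13.6% and 13.4% of lncRNA genes at this level. The share that fell, 0.866% with either combination, is under their 4.4% and 6.88%. With both combinations 22 rose and 0 fell, and the 9.52% that rose is near the 8.70% of lncRNA genes at this level and under the 12.5% of all genes. Of their 229 coding genes, 24 rose and 81 fell with siYAP/TAZ#1 (10.5% and 35.4%, beside 19.5% and 25.6% of all coding genes tested). With siYAP/TAZ#2, 37 rose and 70 fell (16.2% and 30.6%, beside 23.3% and 25.7%). In their 229 pairs with the named coding gene, fitted among 930 pairs, the lncRNA was relatively higher in 59 and 57 and relatively lower in 3 and 4. Of the 924 pairs above, 19.0% and 19.8% were relatively higher and 3.57% and 5.41% relatively lower. No test compared this larger group with other lncRNAs.

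The enzymes that end and degrade divergent transcripts were read from a list of 32 genes of the RNA exosome, its nuclear cofactors, the cap-binding complex, Integrator and related factors. With siYAP/TAZ#1, 20 of the 32 were lower and 0 higher, and with siYAP/TAZ#2, 16 were lower and 0 higher, 14 of them lower with both (43.8%, beside 13.3% of all genes and 18.4% of coding genes). Their median log2 change was -0.24 and -0.21, against 0.02 for all genes tested, of which 18.5% and 19.2% were lower. EXOSC3, a cap subunit of the exosome, went from 21.9 ± 1.16 CPM in siCo to 15.2 ± 0.562 and 15.4 ± 0.83 (log2 change -0.53 ± 0.07 and -0.51 ± 0.07, edgeR adjusted p = 1.27e-05 and 1.67e-05). SRRT, known as ARS2, which joins the cap-binding complex to the decay machinery, changed by -0.53 ± 0.08 and -0.37 ± 0.08 (edgeR adjusted p = 4.33e-05 and 0.000902). NCBP3, a cap-binding protein, changed by -0.38 ± 0.06 and -0.56 ± 0.06, and the exosome subunit gene EXOSC4 by -0.51 ± 0.10 and -0.68 ± 0.10.

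**Figure D5:**
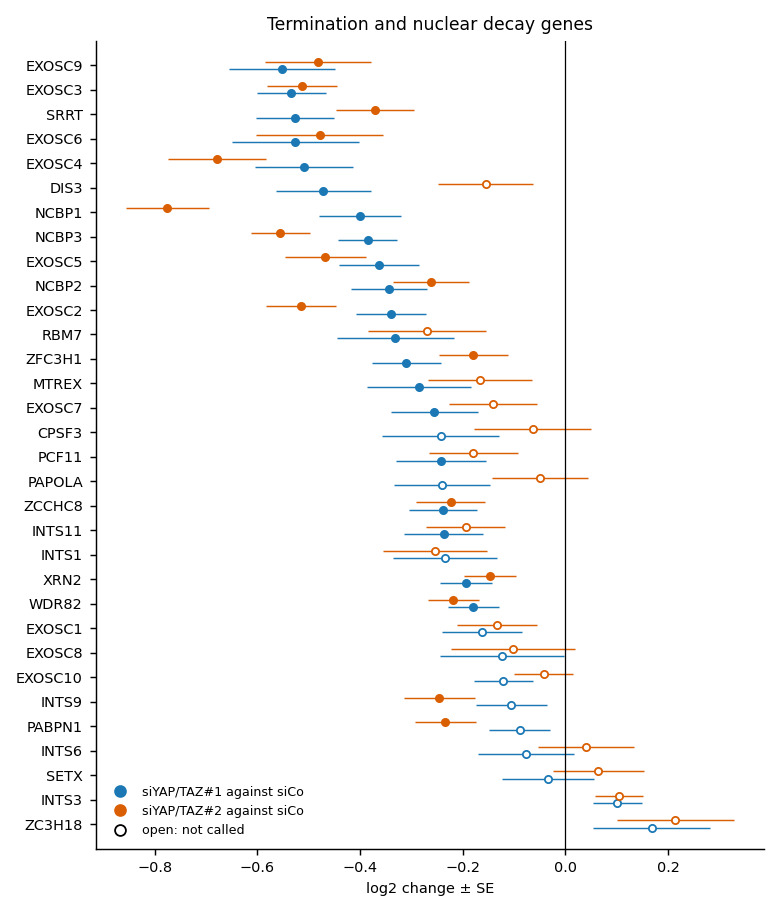
Log2 change ± SE (horizontal) of the 32 termination and nuclear decay genes with each combination; filled points passed the edgeR test and open points did not. With TMM scaling all 20 and 16 filled points lie to the left of 0, where library totals alone gave 7 and 8 lower and 2 and 2 higher, with NCBP1 furthest left at -0.78 with siYAP/TAZ#2.

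These calls depended on the scale more than those of the lncRNAs. With library totals alone, 7 and 8 of the 32 were lower and 2 and 2 higher, and on log2(TPM + 1) 0 and 0 were lower. Without siYAP/TAZ#2 replicate 1, 23 and 17 were lower and 2 and 2 higher. Whether the level of these genes has a part in the levels of the divergent lncRNAs was not tested.

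Among the 888 other head-to-head lncRNA genes, some of which carry a -DT symbol in the newer names, calls also lay mostly on the higher side. Of these, 135 rose and 29 fell with siYAP/TAZ#1 (15.2% and 3.27%, 18.5% called) and 139 rose and 47 fell with siYAP/TAZ#2 (15.7% and 5.29%, 20.9% called), and 87 rose with both (9.80%, against 6 of 36, or 16.7%, of the members). Their median log2 change was 0.13 and 0.12. Of their 870 coding genes, 135 rose and 289 fell with siYAP/TAZ#1 (15.5% and 33.2%, beside 19.5% and 25.6% of all coding genes tested). With siYAP/TAZ#2, 172 of these coding genes rose and 302 fell (19.8% and 34.7%, beside 23.3% and 25.7%). Between the combinations 1.46% of these lncRNA genes were higher and 2.93% lower (4.39% called). In the pairs of these other genes the lncRNA was relatively higher in 165 (18.6%) and lower in 33 (3.72%) with siYAP/TAZ#1, or 22.3% called. With siYAP/TAZ#2 these were 170 (19.1%) and 50 (5.63%), or 24.8% called, and 104 were relatively higher with both. Between the combinations 6.19% of these pairs were called, 3.04% relatively higher and 3.15% relatively lower. No test of a difference between the members and these genes was made.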

How the data were processed

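RNA of A549 cells was sequenced on the BGISEQ-500 in 12 libraries, 4 per group, which the series describes as biological replicates. For each sample the authors deposited estimated counts and TPM per Ensembl gene. Per the submitters' processing notes, the deposited estimated counts and TPM come from a workflow that names Trim Galore 0.6.4, kallisto 0.4.6 and GRCh38.p13. Strand and removal of ribosomal RNA are not given in the sources used here.

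After rounding to integers, the estimated counts entered edgeR 4.0.16 (TMM scaling, default expression filter, quasi-likelihood test, group as the only term, all 12 libraries) in R 4.3.3, with Benjamini-Hochberg adjustment over 21581 genes and calls at an adjusted p under 0.05. Pair differences of log2 CPM (prior count 2) were tested with limma 3.58.1 over 924 pairs. Both scripts were tested on simulated data. Printed CPM are after TMM scaling, except those of the threshold. Gene types, symbols and positions came from GENCODE v29, and promoter windows from RefSeq (GRCh38.p14). Members without a matched RefSeq window included AFDN-DT, DDR1-DT, ITGB1-DT, KLHL7-DT, LHX1-DT, LY6E-DT, VPS33B-DT and ZKSCAN2-DT.

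The members and gene lists were chosen with earlier results of these data known. Named genes were YAP1 and WWTR1, the 8 members with the highest mean TPM, and up to 12 members called alike with both combinations. Also named were up to 8 members called between the combinations, up to 10 pairs called with both, and pairs called in opposite directions with both (0 found). The members beside the threshold were named too, as were 4 genes of the decay list by adjusted p with siYAP/TAZ#1. Other members were named after their values were seen. The values of 1 pair enter the counts but are not reported here. Alternatives covered the scaling, DESeq2 1.42.0, the expression filter, TPM with limma, a replicate block, GC content, newer symbols, the CPM level and leaving out each library.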

Additional observations from a re-analysis of the deposited data

Results flagged for a closer look

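Library values that stood far from the other 3 of their group were sought for 35 lncRNAs and 35 coding genes, and 16 of 210 groups held one, where chance flags about 1 in 20 (10.5). Of these, 5 were in siYAP/TAZ#2 replicate 1: CTBP1 at 252 CPM, NIPBL at 48.4, ITGB1 at 933, FAM111A at 25.8 and AFDN at 82.3 CPM. In siYAP/TAZ#1 replicate 2 stood BAIAP2 at 123, GMDS at 10.3 and OSER1-DT at 2.22 CPM. In siCo replicate 4 stood NIPBL at 67.1, EIF3J at 38.1 and CSTF3 at 39.1 CPM, and in siYAP/TAZ#1 replicate 4 KLHL7 at 18.8, NCK1 at 11.3 and CPEB2 at 81.4 CPM. The last were NIPBL-DT at 5.94 CPM in siYAP/TAZ#2 replicate 4 and CPEB2-DT at 0.537 CPM in siYAP/TAZ#2 replicate 3. Among the lncRNAs, 3 values were of this kind.

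The combinations differed by the edgeR test in 3 lncRNAs and 7 coding genes, given as log2 of siYAP/TAZ#2 over siYAP/TAZ#1. These were ITGB1-DT (0.66), EIF3J-DT (0.47) and NIPBL-DT (-0.62), with EIF3J (0.46), CEP83 (0.41), LRRC8C (0.29), MAFG (-0.28), DDR1 (-0.44), DNAJC3 (-0.85) and NUP50 (-0.91). The pair difference differed by limma for NUP50-DT (1.24), ITGB1-DT (0.50) and NIPBL-DT (-0.74).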

How the results depend on the processing

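Depth limits the members more than their coding genes, since the median member had a mean of 81.8 estimated counts per library and the median coding gene 1042. No setting but the newer symbols, GC offsets (1) and single left-out libraries (0 to 1) called a member lower than siCo. In the counts below, pairs of values are siYAP/TAZ#1 and siYAP/TAZ#2 against siCo unless siYAP/TAZ#2 is said to be set against siYAP/TAZ#1. Where a count moved, the cause was not tested.

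With library totals alone, 13 members were higher with siYAP/TAZ#1, 16 and 13 coding genes were higher and 4 and 4 lower, 232 and 250 other head-to-head lncRNAs were higher and 11 and 30 lower, and 2 and 2 decay genes were higher and 7 and 8 lower. Between the combinations 0 decay genes were then higher. With limma on log2(TPM + 1) and on log2(TPM + 0.1), 3 members were higher with siYAP/TAZ#1 and 0 differed between the combinations, and 0 and 1 coding genes were lower and 0 differed between the combinations. The other head-to-head lncRNAs were then higher in 61 and 75 (siYAP/TAZ#1) and lower in 0 and 3. Between the combinations 1 and 0 were higher and 0 and 1 lower. Of the decay list, 0 and 0 were lower, 1 higher with siYAP/TAZ#2 and 0 between the combinations. Without a filter, 1 member was higher between the combinations, 5 coding genes were lower with siYAP/TAZ#2 and 13 decay genes lower with siYAP/TAZ#1. DESeq2 called 1 and 1 decay genes higher and 3 lower between the combinations, and a filter at a mean CPM of 1 called 1 and 1 higher and 2 lower.

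GC offsets gave 1 member lower with siYAP/TAZ#2 and 3 lower between the combinations, 8 coding genes higher with siYAP/TAZ#1 and 5 higher between the combinations, 74 other lncRNAs lower with siYAP/TAZ#2, and 3 decay genes higher and 6 lower between the combinations. The replicate numbers showed no general pairing of the libraries. Of 12 same-number correlations, 4 were over 0.1 (-0.153 to 0.208), other-number ones reached 0.204, and 3 libraries were closest to their own number in both other groups. The replicate 4 libraries correlated at 0.193 (siCo and siYAP/TAZ#1), 0.148 (siCo and siYAP/TAZ#2) and 0.208 (both combinations), and whether they are linked was not tested. With the replicate block, 7 and 11 members were higher, and the lncRNA was relatively higher in 11 and 13 pairs and lower in 1 with siYAP/TAZ#2. The replicate block with GC offsets gave 3 members lower between the combinations, 8 coding genes higher with siYAP/TAZ#1 and 5 between the combinations, 45 and 82 other lncRNAs lower and 40 lower between the combinations, and 3 decay genes higher and 5 lower between the combinations.

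By newer symbols, 35 and 39 members were higher and 2 and 2 lower, with 6 higher and 2 lower between the combinations. In 59 and 57 of their pairs, an alternative added after seeing the data, the lncRNA was relatively higher, and in 3 and 4 lower, with 8 lower between the combinations. Without members that share exons, also added after seeing the data, 6 members were higher with siYAP/TAZ#2 and 0 between the combinations, and 6 and 6 pairs were relatively higher, with 1 between the combinations. Pair differences of log2(TPM + 1) were relatively higher in 2 and 3 and lower in 4 and 6, with 1 higher and 0 lower between the combinations. On log2(TPM + 0.01), added after seeing the data, they were higher in 3 and 5, with 1 higher and 0 lower between the combinations. Against background pairs within 1 kb, 1 pair was relatively lower with siYAP/TAZ#2.

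Leaving out each library in turn, members higher numbered 6 to 10 and 8 to 12, members lower 0 to 0 and 0 to 1, and between the combinations 1 to 4 were higher and 1 to 3 lower. Coding genes higher numbered 5 to 5 and 4 to 6, lower 7 to 12 and 6 to 11, and between the combinations 2 to 8 and 3 to 7. Other head-to-head lncRNAs higher numbered 106 to 160 and 115 to 136, lower 19 to 33 and 37 to 89 (89 without siYAP/TAZ#2 replicate 1), and between the combinations 7 to 17 and 17 to 52. Decay genes higher numbered 0 to 2 and 0 to 2, lower 15 to 23 and 14 to 17, and between the combinations 0 to 6 and 1 to 4. Pairs with the lncRNA relatively higher numbered 6 to 11 and 9 to 13, relatively lower 0 to 1 and 0 to 2, and between the combinations 1 to 2 and 1 to 2.

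On log2(TPM + 1) and log2(TPM + 0.1), where the median gene is shifted upward, coding genes turned to higher values with siYAP/TAZ#1 for AFDN (0.17 and 0.18), CAPN10 (0.22 and 0.23), CSTF3 (0.10 and 0.11), CTBP1 (0.062 and 0.063), GARS (0.062 and 0.063) and MRPS30 (0.025 and 0.026). With siYAP/TAZ#2 the same held for AFDN (0.27 and 0.28), CAPN10 (0.16 and 0.17), GARS (0.22 and 0.23), LRRC8C (0.052 and 0.057), MAFG (0.31 and 0.32) and MRPS30 (0.20 and 0.20). On library totals alone this held for GARS with siYAP/TAZ#2 (0.0020) and AFDN with siYAP/TAZ#1 (0.026) and AFDN with siYAP/TAZ#2 (0.036). With GC offsets MAFG-DT with siYAP/TAZ#2 turned to -0.11 (edgeR adjusted p = 0.0486). On log2(TPM + 1) the pair difference turned to lower values with siYAP/TAZ#1 for NIPBL-DT (-0.055), FAM111A-DT (-0.12) and CPEB2-DT (-0.69), and with siYAP/TAZ#2 for DDR1-DT (-0.52), CPEB2-DT (-0.52) and VPS33B-DT (-0.53).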
